A study of Mus musculus with 5 samples.

Results

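Broad RNA Pol II regions are stretches of the mouse genome, 3000 bp or longer, over which chromatin fragments bound by RNA polymerase II were dense without a long break. They were chosen from the reads themselves. The 19 autosomes were divided into bins of 500 bp, and a bin was called where it held at least 10 RNA Pol II reads and at least 3 times the share of reads found in whole-cell extract (WCE, chromatin taken without immunoprecipitation). Called bins with at most 1 bin between them were joined, and joined regions of 3000 bp or more were kept. Of 13480 RNA Pol II regions, 682 were broad (5.06%) and 12798 were shorter. The RNA Pol II and WCE reads in these 682 regions are therefore a description of the choice. The E2F4 and H3K27me3 reads, and the RNA Pol II reads listed at 2 places of the genome, played no part in it.

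All 5 chromatin libraries came from 1 kind of cell, secondary mouse embryonic fibroblasts in which Klf4, Sox2 and Oct4 can be induced with doxycycline. To obtain them, induced pluripotent stem cells with an Oct4-selectable cassette had been derived with Wnt3a-conditioned medium and injected into BDF2 blastocysts, and the chimeras gave fibroblasts at 13.5 days post coitum. Puromycin at 2 µg/ml for 48 hours selected those derived from the injected cells, and the culture medium held 10% cosmic calf serum. The labels mention no doxycycline treatment and give no number of embryos. There was 1 library for each of 3 antibodies (E2F4, Santa Cruz SC-1082; H3K27me3, AB6002; RNA Pol II, 8WG16, MMS-126R) and 2 libraries of WCE. With no second immunoprecipitation for any antibody, the differences below have no replicate spread and no p-value: they compare libraries. Each interval is an exact 95% Clopper-Pearson interval and covers counting error only, since reads amplified by PCR are not independent molecules and neighbouring regions are not replicates.

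RNA polymerase II is the enzyme that transcribes messenger RNA. It gathers at promoters, where it often pauses before moving into the gene, and it covers the body and the end of genes that are heavily transcribed. The 8WG16 antibody was raised against the repeated tail of its largest subunit and prefers the form with little phosphate, which is most abundant near the start of genes. E2F4 is a transcription factor that binds promoters with the pocket proteins p107 and p130 and is known for holding cell cycle genes low in resting cells. H3K27me3 is the histone mark that Polycomb repressive complex 2 lays down over silent developmental genes.

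The libraries held 1971874 distinct autosomal reads for E2F4, 9483163 for H3K27me3, 3111606 for RNA Pol II, 417799 for WCE replicate 1 and 11226593 for WCE replicate 2, after repeats of a position and strand were dropped. The pair of extracts stood apart from each other. Within the broad regions WCE replicate 2 was 2.70 times (2.67 to 2.72) as dense as in their flanks, the sequence 5 to 20 kb away that lies outside any RNA Pol II region, whereas WCE replicate 1 was at 0.780 times (0.708 to 0.857). WCE replicate 1 had no read at all in 381 of the 682 regions, so the summed background rested almost wholly on replicate 2. Read lists of E2F4, RNA Pol II and WCE replicate 1 carry 1 run name, and those of H3K27me3 and WCE replicate 2 carry another. With WCE replicate 1 as the only background 215 broad regions were found, and with replicate 2 as the only one 674. Where regions are summed, a ratio to WCE is given with each extract, and ratios of single regions are to both extracts summed. Scaling the libraries on background bins in place of totals moves all ratios to WCE up, by 1.82 on the log2 scale for RNA Pol II, 0.14 for E2F4 and 0.40 for H3K27me3.

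The 682 regions covered 2.97 Mb, which was 17.5% of the 16.93 Mb in RNA Pol II regions of any length, and held 9.05% of the autosomal RNA Pol II reads. Their median length was 3500 bp (quartiles 3000 and 5000 bp), and 510 were 3000 to 4500 bp long, 154 were 5000 to 9500 bp and 18 were 10 kb or longer. Of their 5937 bins 5503 passed the RNA Pol II rule, against 0.841% of all autosomal bins with a read, and 357 regions had no uncalled bin inside. The rule's length limit fell within a smooth slope: 546 regions of 2500 bp lay just outside it and 227 of 3000 bp just inside. How many were found followed the depth and the rule: 401 when RNA Pol II was thinned to the E2F4 total, and 267 when a called bin needed 20 reads. The regions of 2500 bp had a median of 240 RNA Pol II reads and 32 E2F4 reads, and those of 3000 bp of 251 and 36.

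RNA Pol II was not spread evenly along these regions. The median region held 349.5 RNA Pol II reads (range 54 to 3655), of which 34.1% lay in its densest bin, and that bin held a median of 125 reads, against 66 in shorter regions. RNA Pol II reads per kb differed little between the groups, with a median of 88.9 in broad and 91.3 in shorter regions. The summed RNA Pol II ratio to WCE was 13.8 (13.7 to 13.9) in broad and 13.5 (13.5 to 13.6) in shorter regions. The order held with WCE replicate 2 alone (13.4 and 13.1) and turned with replicate 1 alone (77.5 and 119.7). The densest bin stood a median of 1000 bp from the nearer end. These values follow from the rule in part, since a maximum over more bins is higher: at the length limit the densest bin held a median of 107.5 reads in regions of 2500 bp and 105 in those of 3000 bp.

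The longest region, 28000 bp on chromosome 19 from 5822501 to 5850500 (mm8), held 3655 RNA Pol II reads, 134 of E2F4, 207 of H3K27me3, 3 of WCE replicate 1 and 639 of WCE replicate 2. Over its first 13 kb the bins held 6 to 33 RNA Pol II reads. From there the level climbed in steps to 498 reads in the bin that begins 22.5 kb from the start, and 1.0 kb further on it was back at 24. Its 1 E2F4 bin, with 21 reads, was the neighbour of that summit on the far side from the shoulder. A neighbouring member lay on chromosome 19 from 5793001 to 5805000, with 2645 RNA Pol II, 92 E2F4, 92 H3K27me3, 0 WCE replicate 1 and 276 WCE replicate 2 reads. There the 366 RNA Pol II reads of the densest bin were followed, 1.0 kb on, by the region's densest E2F4 bin with 32 reads.

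The region ranked 2 by length, on chromosome 11 from 94749001 to 94771500, held 2096 RNA Pol II, 112 E2F4, 200 H3K27me3, 2 WCE replicate 1 and 594 WCE replicate 2 reads. Its summit of 406 RNA Pol II reads stood 3.0 kb from one end, and every bin from 5.5 kb onward held 12 to 46 reads. Rank 3, on chromosome 6 from 117134001 to 117149500, had its summit of 322 RNA Pol II reads and its only E2F4 bin, with 19 reads, together in the first bin. It held 1018 RNA Pol II, 89 E2F4, 166 H3K27me3, 4 WCE replicate 1 and 264 WCE replicate 2 reads in all. In ranks 1 and 3 the only E2F4 bin was at or beside the RNA Pol II summit. In rank 2 it was not: the summit held 5 E2F4 reads, the only E2F4 bin, with 10 reads, began 0.5 kb from the start, and the 12 reads of the densest E2F4 bin, 4.5 kb from the start, did not pass the rule.

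Ranks 4 and 5 had no E2F4 bin. The first of these, on chromosome 2 from 117802501 to 117817500, reached 310 RNA Pol II reads in its second bin, where E2F4 had 11 reads and WCE replicate 2 had 27. Rank 5, on chromosome 11 from 86391501 to 86404500, had no sharp summit: 7 bins in a row held 130 to 232 RNA Pol II reads, and no bin held more than 5 E2F4 reads. Its 2294 RNA Pol II reads came with 42 of E2F4, 95 of H3K27me3, 1 of WCE replicate 1 and 332 of WCE replicate 2.

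**Figure D1:**
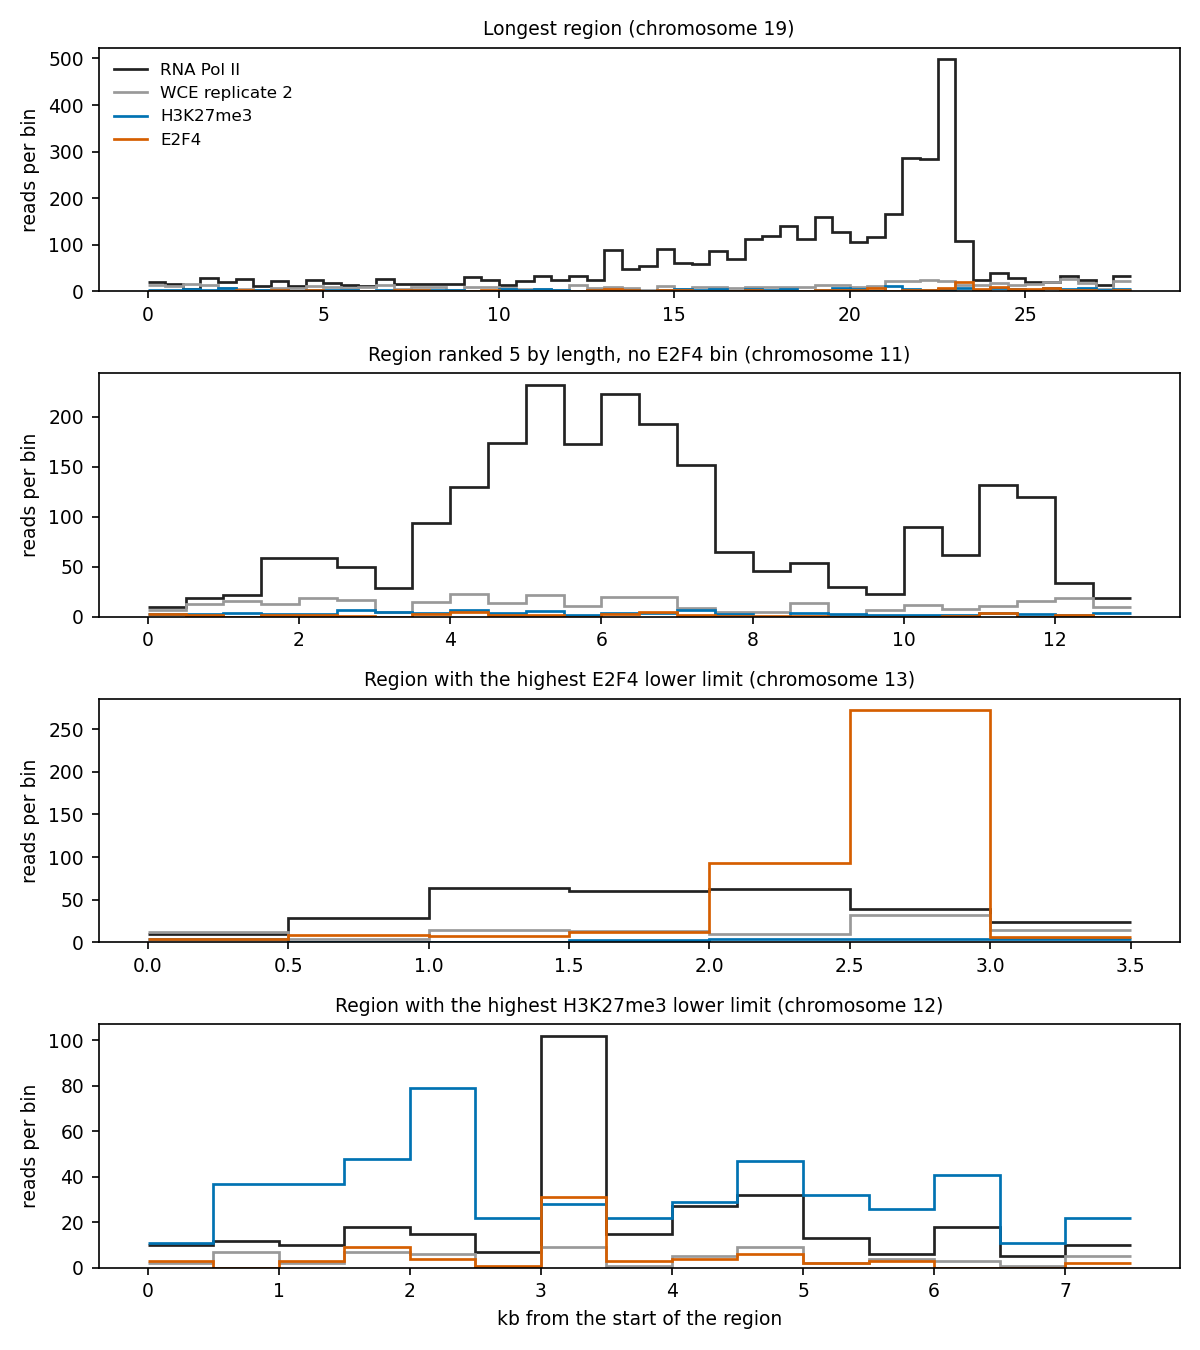
Reads per 500-bp bin (vertical axis, distinct reads, not scaled for depth) along 4 broad regions (horizontal axis, kb from the start of the region) for RNA Pol II, WCE replicate 2, H3K27me3 and E2F4. The longest region climbs to 498 RNA Pol II reads in 1 bin, rank 5 has a plateau of 130 to 232 with almost no E2F4, the third panel has 272 E2F4 reads in 1 bin, and in the fourth H3K27me3 covers every bin around an RNA Pol II summit of 102 reads.

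E2F4 was common in broad regions. An E2F4 bin, called by the same rule of 10 reads and 3-fold, lay in 460 of the 682 (67.4%, 63.8 to 71.0%), against 48.5% of shorter regions, 1.05% of all 3 kb windows and 0.266% of all bins. A longer region has more bins in which a call can fall, and the share moved with length: it was 22.8% at 500 bp, 55.6% at 1000 bp, 65.6% at 2000 to 2500 bp, 64.9% at 3000 to 4500 bp and 74.7% at 5000 to 9500 bp. Between 2500 bp and 3000 bp, where the limit lies, there was no step (64.8% and 65.2%). Counted only in the densest RNA Pol II bin, which gives each region 1 bin whatever its length, E2F4 was called in 46.6% (42.8 to 50.5%) of broad and 42.4% (41.6 to 43.3%) of shorter regions. The share with any E2F4 bin was 41.9% when bins of both libraries needed 20 reads.

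E2F4 calls were more frequent in both groups where the densest RNA Pol II bin, here called the summit, held more reads, so the summits were also set side by side within classes of their RNA Pol II reads. In each class the share with an E2F4 bin at the summit was lower for broad regions than for shorter ones. At 40 to 79 RNA Pol II reads the share was 28.2% (20.7 to 36.8%) of 131 broad and 43.0% (41.3 to 44.8%) of 3034 shorter regions. At 80 to 159 reads it was 51.4% (45.0 to 57.7%) of 251 and 62.2% (60.7 to 63.7%) of 3920, and at 160 or more 64.4% (57.9 to 70.5%) of 236 and 72.2% (69.8 to 74.4%) of 1509. At 20 to 39 reads none of 52 broad regions had an E2F4 bin there, for which the exact upper bound is 6.85%, against 23.0% of 2028 shorter ones. The lowest class, 10 to 19 reads, held only 12 broad regions, too few to set apart from the 5.64% of shorter ones. WCE replicate 2 at the same summits had a mean of 10.7 reads in broad and 14.1 in shorter regions at 20 to 39 RNA Pol II reads, 15.4 and 16.8 at 40 to 79, 18.1 and 21.5 at 80 to 159, and 24.5 and 27.3 at 160 or more. The intervals of the 2 groups did not overlap in the classes from 20 to 159 reads and overlapped at 160 or more. They cover counting error only and regions are not replicates, so their overlap is no test between the groups. The shares above count the summit bin alone. An E2F4 bin anywhere in the region was found in 21.2% of broad and 27.3% of shorter regions at 20 to 39 reads. The shares were 50.4 and 50.9% at 40 to 79, 74.1 and 70.8% at 80 to 159, and 83.5 and 79.1% at 160 or more. Broad regions have more bins in which such a call can fall.

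**Figure D2:**
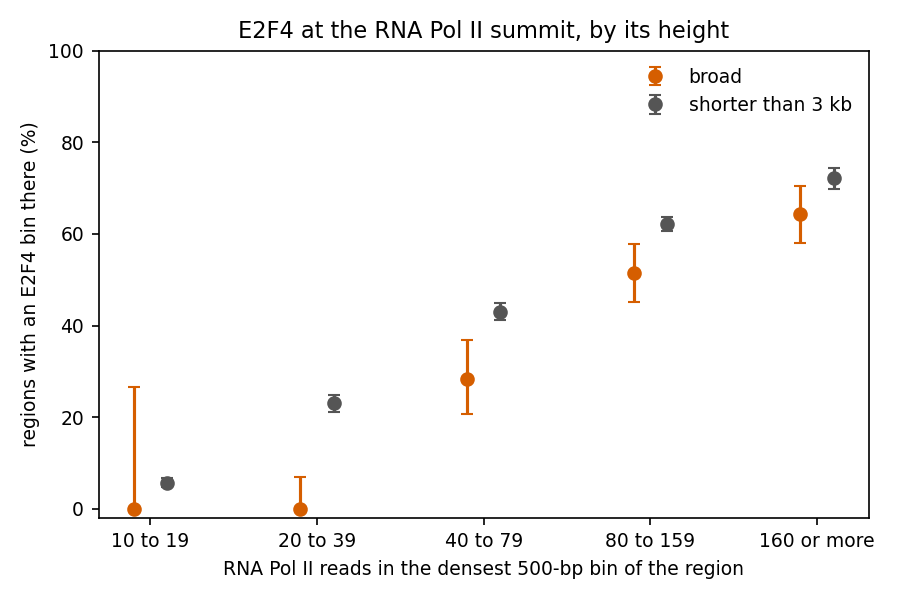
Share of regions with an E2F4 bin at the densest RNA Pol II bin (vertical axis, percent) by the number of RNA Pol II reads in that bin (horizontal axis), for broad and shorter regions. Points are shares and bars exact 95% intervals, and the broad regions sit below the shorter ones in each of the 5 classes, as with 28.2% against 43.0% at 40 to 79 reads.

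Over whole regions, not matched for summit reads, E2F4 was also less dense in broad than in shorter regions. E2F4 reads were 11.5 times (11.3 to 11.7) as dense in broad regions as in their flanks, and 30.8 times (30.7 to 31.0) in shorter regions. These are means over the whole length. In broad regions E2F4 was 30.4 times the flanks in the densest RNA Pol II bin and 7.19 times at 1.5 kb or more from it. Per kb, broad regions had 0.457 (0.453 to 0.462) of the E2F4 density of shorter regions, while they had 0.861 of the RNA Pol II density, 0.900 of the H3K27me3 density and 0.843 of that of WCE replicate 2. WCE replicate 1, which carries the run name of E2F4, went the other way at 1.33 (1.20 to 1.47). By length, E2F4 was 27.9 times the flanks at 500 bp, 39.1 at 1000 bp, 29.9 at 1500 bp and 20.8 at 2000 to 2500 bp. In broad regions it was 13.3 at 3000 to 4500 bp, 8.94 at 5000 to 9500 bp and 7.63 (6.89 to 8.46) in the 18 regions of 10 kb or more. RNA Pol II also rose and then fell over the shorter classes, with 53.7, 95.3, 78.96 and 61.1 times the flanks, and in the broad classes it was 41.1, 36.3 and 40.3. The ratio of E2F4 to the summed WCE was 2.94 (2.90 to 2.98) in broad and 5.43 (5.41 to 5.46) in shorter regions. It was 2.85 and 5.26 with WCE replicate 2 alone, and 16.5 and 48.0 with replicate 1 alone, which carries the same run name as E2F4.

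**Figure D3:**
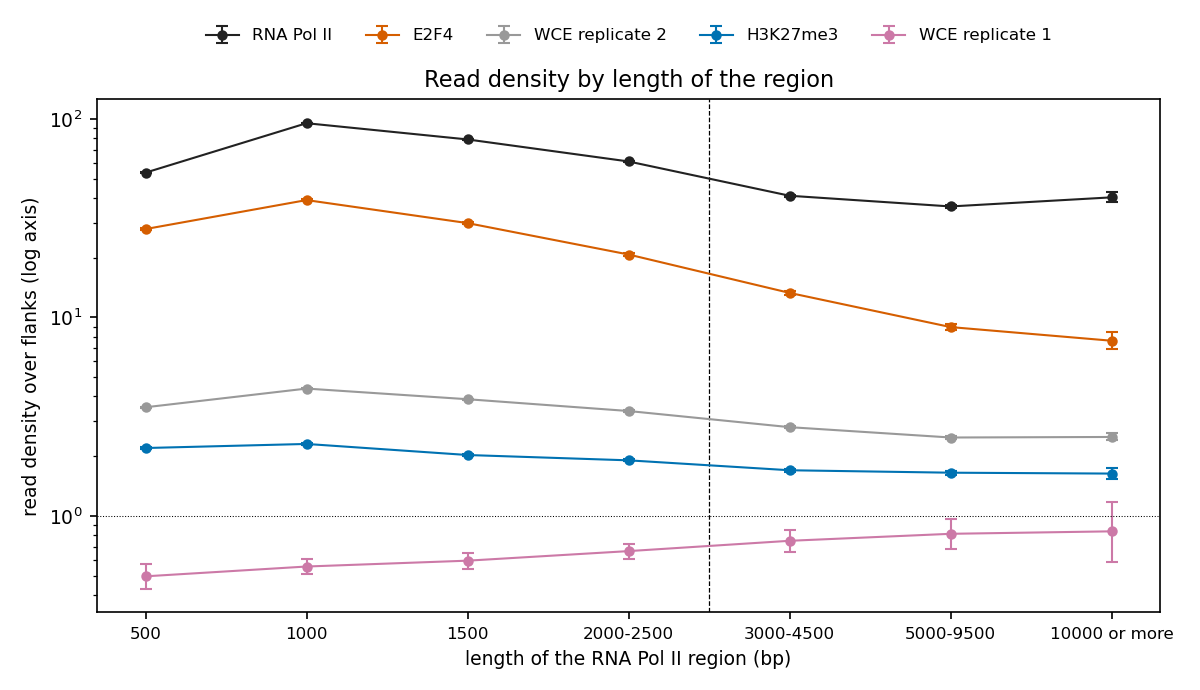
Read density in RNA Pol II regions over that of their flanks (vertical axis, log scale) by length of the region (horizontal axis, bp) for the 5 libraries. Points are ratios of summed reads, bars exact 95% intervals and the dashed line the 3 kb limit: E2F4 rises from 27.9 at 500 bp to 39.1 at 1000 bp and falls to 7.63 at 10 kb or more, while WCE replicate 2 falls from 4.38 to 2.50 and WCE replicate 1 stays under 1.

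Inside broad regions E2F4 followed the RNA Pol II summit. Among the 460 regions with an E2F4 bin, the densest E2F4 bin lay within 500 bp of the densest RNA Pol II bin in 342 (74.3%, 70.1 to 78.3%), where 37.1% of their bins lie, and it was the same bin in 233. The same count gave 46.7% for H3K27me3 and 63.9% (59.3 to 68.3%) for WCE replicate 2, so extract also tended to peak there. E2F4 had no such tie to the ends of regions: its densest bin was within 1 kb of an end in 53.7% (49.0 to 58.3%), where 50.9% of the bins lie. Summed over all 682 regions, E2F4 was 30.4 times the flanks in the densest RNA Pol II bin, 11.3 at 0.5 to 1 kb from it and 7.19 at 1.5 kb or more, where RNA Pol II was 123, 36.3 and 25.03 times the flanks. At 3 kb or more, which only 261 regions reach, E2F4 was 5.86 (5.65 to 6.07) and RNA Pol II 25.8 times the flanks of all 682. Those are the longer regions, in which E2F4 was lower as a whole, so this last value cannot be set against the others as an effect of distance.

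The lower E2F4 level far from summits was still above that of every other library but RNA Pol II. At 3 kb or more from the summit, WCE replicate 2 was 2.25 times, H3K27me3 1.43 times and WCE replicate 1 0.745 times the flanks. Only 4.82% of those 1057 bins were E2F4 bins, against 46.6% of summits and 0.266% of all autosomal bins. Turned so that the longer side of each region faced the same way, the 646 regions with a longer side and room around them had 2.78 times (2.67 to 2.89) as many E2F4 reads at 1.5 to 3 kb on that side as on the other. The same ratio was 1.28 for H3K27me3, 1.57 for WCE replicate 2, 0.698 (0.584 to 0.833) for WCE replicate 1 and, by the choice of sides, 3.92 for RNA Pol II. Of these regions 100% reach 1.5 kb on the longer side, against 16.6% on the other. The choice of sides thus sets mostly sequence inside regions against sequence outside, for every library. For E2F4 the ratio of sides was 1.07 at 0.5 to 1 kb and 1.15 at 3.5 to 6 kb.

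**Figure D4:**
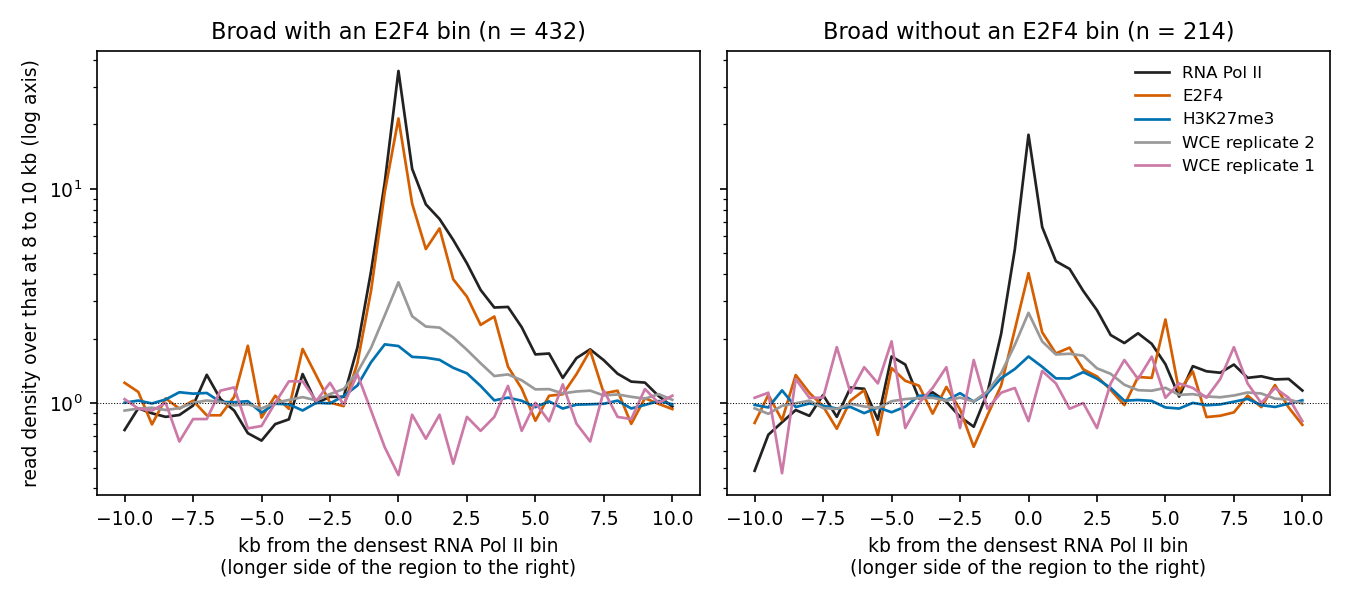
Read density around the densest RNA Pol II bin over the level at 8 to 10 kb (vertical axis, log scale) by distance in kb (horizontal axis, longer side of the region to the right), for broad regions with and without an E2F4 bin. Lines are summed reads of each library in 500-bp steps: with an E2F4 bin, E2F4 reaches 21.3 and RNA Pol II 35.5 at the summit, and without one they reach 4.04 and 17.9. The panels were split on E2F4 reads, so the E2F4 difference between them describes the split.

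The 222 broad regions without an E2F4 bin were not empty of E2F4 reads. They held a median of 19.5 (0 to 98), and their E2F4 density was 4.20 times the flanks. WCE replicate 2 was 2.30 times and WCE replicate 1 0.869 times the flanks there. Their summed E2F4 ratio to WCE was 1.28 (1.24 to 1.33) with both extracts, 1.25 with replicate 2 and 5.62 with replicate 1. RNA Pol II was lower in these 222 regions too, at 28.3 times the flanks against 46.0 in regions with an E2F4 bin. Per kb, regions with an E2F4 bin had 3.41 times (3.30 to 3.52) the E2F4, 1.51 times the RNA Pol II, 1.24 times the WCE replicate 2 and 1.06 times the H3K27me3 of those without. The split was made on E2F4 reads, so its E2F4 ratio describes the split and is not a separate result. Across the 682 regions E2F4 reads per kb rose with RNA Pol II reads per kb (Spearman's rho 0.54, Pearson's r 0.37) and WCE replicate 2 reads per kb did so about as closely (rho 0.53, r 0.51). Both relations use the same RNA Pol II reads per kb, and the regions are not replicates. A single region, on chromosome 6 from 36685001 to 36688000, had no E2F4 read, with 59 RNA Pol II, 9 H3K27me3, 1 WCE replicate 1 and 20 WCE replicate 2 reads.

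**Figure D5:**
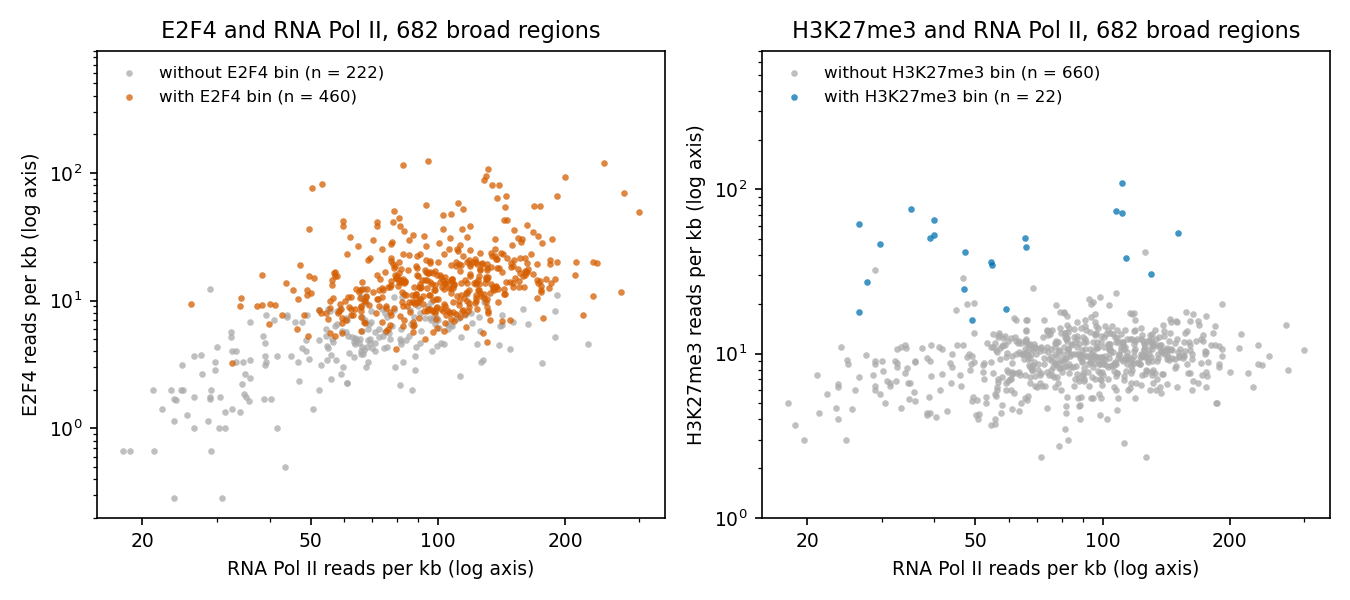
E2F4 reads per kb (left) and H3K27me3 reads per kb (right) against RNA Pol II reads per kb in the broad regions, all on log axes, 1 point per region. The 460 regions with an E2F4 bin overlap in RNA Pol II with the 222 without, most of the 22 with an H3K27me3 bin stand above the others in H3K27me3, and the region with no E2F4 read is not drawn on the left. Each panel was split on the reads of its vertical axis, so differences along that axis describe the split.

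The 5 regions with the highest lower limits of the E2F4 ratio to WCE were 3000 to 4000 bp long. On chromosome 13 from 29991001 to 29994500 there were 403 E2F4, 289 RNA Pol II, 19 H3K27me3, 1 WCE replicate 1 and 100 WCE replicate 2 reads, an E2F4 ratio to WCE of 23.6 (18.9 to 29.6). Of the E2F4 reads 272 lay in 1 bin, which held 39 RNA Pol II reads, while the RNA Pol II bins before it held 60 to 64. RNA Pol II was thus flat over the 3 bins that lead up to the E2F4 summit. The highest ratio, 33.8 (25.1 to 46.1), belonged to chromosome 13 from 23540501 to 23544500, with 303 E2F4, 202 RNA Pol II, 21 H3K27me3, 2 WCE replicate 1 and 51 WCE replicate 2 reads. Its E2F4 bins of 245 and 49 reads stood 1.5 kb apart, with no bin above 4 between them.

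Among the other 3 of these 5, on chromosome 11 from 69395001 to 69398000 E2F4 was high at both ends of the region, with 110 and 143 reads in its first bins and 68 in its last, while the RNA Pol II summit of 85 reads in between held 7. This region had 368 E2F4, 285 RNA Pol II, 29 H3K27me3, 0 WCE replicate 1 and 90 WCE replicate 2 reads. The other two shared their summits: 137 E2F4 and 339 RNA Pol II reads in 1 bin on chromosome 1 from 156859501 to 156862500, and 210 E2F4 and 149 RNA Pol II reads in 1 bin on chromosome 8 from 49172001 to 49175000.

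Some broad regions carried E2F4 at separate points. Called E2F4 bins formed 1 stretch in 376 regions, 2 in 80 and 3 in 4. In the 84 regions with 2 or more, the outer stretches were a median of 2000 bp apart (quartiles 1500 and 3000 bp), and the densest RNA Pol II bin lay within 500 bp of one of them in 73. These regions had a median length of 4500 bp, and the share of their bins that lie as near was not taken. The count of 73 therefore cannot be read as a tie to the summit. The median RNA Pol II bin between the stretches was lower than RNA Pol II at both in 55 of the 84. The same count for other pairs of bins in these regions was not taken, so the 55 cannot be read as tied to E2F4 either. The widest spacing, 7000 bp, was on chromosome 17 from 33634501 to 33643500, where the outer E2F4 bins had 14 and 21 E2F4 reads over 114 and 145 RNA Pol II reads, and the median bin between held 29. On chromosome 6 from 83080001 to 83088000 E2F4 bins of 22 and 68 reads, 6000 bp apart, sat over 124 and 113 RNA Pol II reads with a median of 18 between. In both of these RNA Pol II was low between the E2F4 points.

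H3K27me3 was rare. An H3K27me3 bin lay in 22 of the 682 regions (3.23%, 2.03 to 4.84%), against 1.88% of shorter regions, 4.2% of all 3 kb windows and 1.71% of all bins. That share was near the background: the lower bound was just above the shorter regions' share, and the upper bound was above that of the windows. With WCE replicate 1 as the only background it was 0.930% of 215 regions. Over the other 660 regions H3K27me3 had a median of 38 reads, a ratio to WCE of 0.438 at the median and 1.79 at most. As a density, H3K27me3 was 1.67 times (1.65 to 1.69) the flanks in broad regions, below WCE replicate 2 at 2.70 and above WCE replicate 1 at 0.780. Its summed ratio to WCE was 0.520 (0.514 to 0.527) with both extracts, 0.505 with replicate 2, which carries its run name, and 2.93 (2.68 to 3.21) with replicate 1. Whether H3K27me3 in broad regions lay above or below extract thus turned on which extract was used.

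Most of the 22 regions with an H3K27me3 bin lay above that level, with ratios to WCE of 1.01 to 9.44 and a median of 3.51. These regions were split off on H3K27me3 reads, so their higher H3K27me3 describes the split and is not a separate result. Their H3K27me3 reads ranged from 48 to 492 with quartiles of 120.2 and 259.8, while WCE replicate 2 had a median of 66 there and 100 in the other 660. RNA Pol II was somewhat lower in them, with a median of 51.7 reads per kb against 89.6. An E2F4 bin lay in 12 of the 22, against 448 of the other 660. Of the 108 H3K27me3 bins in broad regions 94 were also RNA Pol II bins. The regions were built from RNA Pol II bins, and 92.7% of all their bins pass that rule. This overlap therefore follows from the choice of regions and is not a separate result. Within the 22 regions, though, the densest bins of H3K27me3 and RNA Pol II were the same in only 1. The RNA Pol II summit held 35.3% of the RNA Pol II and 33.6% (30.3 to 37.1%) of the E2F4 reads but 10.9% (10.0 to 11.8%) of the H3K27me3 reads, close to the 11.4% of the length that it takes up. WCE replicate 2 had 18.2% (16.2 to 20.2%) of its reads there, above the H3K27me3 share, and WCE replicate 1 had 9.09% of 11 reads. Whether the RNA Pol II and H3K27me3 reads came from the same cells cannot be told from bulk chromatin, in which a locus bound in some cells and marked in others gives the same counts.

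Highest of all in H3K27me3 was chromosome 12 from 104871001 to 104878500, with 492 H3K27me3, 300 RNA Pol II, 71 E2F4, 1 WCE replicate 1 and 63 WCE replicate 2 reads. All 15 of its bins were H3K27me3 bins, and in the middle of them 1 bin held 102 RNA Pol II and 31 E2F4 reads. Its H3K27me3 ratio to WCE was 9.44 (7.26 to 12.4). On chromosome 18 from 11049001 to 11054000 there were 358 H3K27me3, 556 RNA Pol II, 54 E2F4, 0 WCE replicate 1 and 77 WCE replicate 2 reads, with 207 of RNA Pol II and 49 of H3K27me3 in the same bin. The other 3 with the highest lower limits were on chromosome 14 from 45307501 to 45311000 (259 H3K27me3 and 377 RNA Pol II reads), chromosome 13 from 78661501 to 78668000 (342 and 259) and chromosome 14 from 66186501 to 66189500 (327 and 334). All 5 also held an E2F4 bin, but only 12 of all 22 regions with an H3K27me3 bin did, against 448 of the other 660 broad regions.

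A different picture came from 5 neighbouring broad regions on chromosome 11 between 96099001 and 96172500. Each held H3K27me3 bins, with 245, 229, 245, 162 and 186 H3K27me3 reads in order of position, and 106, 176, 363, 104 and 213 RNA Pol II reads. E2F4 was low in the first 4, with 4, 14, 21 and 10 reads and no E2F4 bin, and reached 85 reads with 1 E2F4 bin in the last. WCE replicate 2 had 38 to 78 reads in each and WCE replicate 1 had 0 to 3.

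Broad regions often had close neighbours. The nearest other RNA Pol II region was a median of 6 kb away (quartiles 2 and 24.5 kb), against 21.5 kb for shorter regions, and 27.7% had one within 2 kb against 10.8%. Joining over at most 2 bins in place of 1 gave 838 broad regions, and joining only bins that touch gave 488. In 52 groups, broad regions followed each other within 20 kb: 41 of these were pairs, 8 were trios, 2 had 5 members and 1 had 6. The group of 6 ran over chromosome 6 from 36685001 to 36742000, with 1406 RNA Pol II, 163 E2F4, 150 H3K27me3, 3 WCE replicate 1 and 375 WCE replicate 2 reads in its members. Another group of 5, on chromosome 6 from 52087501 to 52137500, had 2183, 261, 349, 6 and 495 in the same order. By chromosome, the broad share of RNA Pol II regions ran from 3.22% on chromosome 9 to 7.30% on chromosome 19, and chromosome 11 had the largest number, 81.

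RNA Pol II reads that matched 2 places, which the choice of regions did not use, were 9.80 times (9.47 to 10.1) as dense in broad regions as in their flanks. Those of E2F4 were 2.75 times, of H3K27me3 0.733 times, of WCE replicate 2 0.860 times and of WCE replicate 1 0.719 times as dense. They were 25.3 times as dense in shorter regions for RNA Pol II, which was again higher than in broad ones. Each such read is listed at both places, and which of them it came from cannot be told, so these values bear on the pair of places together. Only 16 of the 682 broad regions had none of the RNA Pol II lines, but the lines were unevenly spread. The first 50% of them lay in 84 regions, with 228 at most in 1 region.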

How the data were processed

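Chromatin immunoprecipitation reads of 5 libraries were used as the authors deposited them: lists of aligned positions on mm8, 1 per line (unit "other"), with no normalization. Per the file headers, reads were aligned with bowtie at -e 70 -k 2 -m 2 -n 2, and the submitters' processing notes also name Bowtie, without a version. Reads of 26 bp (E2F4, RNA Pol II, WCE replicate 1) or 36 bp (H3K27me3, WCE replicate 2) are listed by their leftmost base, so 5′ ends of minus reads were placed at the other end of the read. Extracts had a mean fragment of 500 bp, and 18 cycles of PCR preceded a gel cut at 150 to 350 bp, per the labels' protocols.

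From these lists, reads with 1 placement were kept once per position and strand, moved 60 bp downstream and counted in 500-bp bins. Fold was the read share over that of both WCE libraries, with 1 read added to each count and autosomal totals as scale. Called bins needed 10 reads and fold 3. Ratios and shares carry exact 95% intervals. Regions named are the 5 longest, for each antibody the 5 whose ratio to WCE had the highest lower bound, and the 5 longest without an E2F4 bin; any other region named was chosen after its values were seen, as were the panels of the region plot. No gene is named, because no annotation of mm8 was used here. Members, classes and lists were chosen with earlier results of these data known. Scripts were tested on simulated data and run with Python 3.11.15, numpy 2.4.6, scipy 1.17.1 and matplotlib 3.10.9. Alternatives covered the background library, repeats, the move, thresholds, joining, scaling, the bin grid, depth, flanks and an exact binomial call.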

Additional observations from a re-analysis of the deposited data

Results flagged for a closer look

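Chromosome X, which the choice of regions leaves out, also held broad RNA Pol II regions: the same rule found 12 among its 427 RNA Pol II regions (2.81%, 1.46 to 4.86%). This is signal in data that the comparisons above do not use. As a control, the rule with WCE replicate 2 in place of RNA Pol II and WCE replicate 1 as background found 0 broad regions on X and 5 on the autosomes, and the reverse found 0 on both. Of the 12, 7 held an E2F4 bin. The longest, from 49294001 to 49302000, had 1174 RNA Pol II, 30 E2F4, 31 H3K27me3, 3 WCE replicate 1 and 62 WCE replicate 2 reads. From 70495501 to 70503000 there were 681, 48, 35, 2 and 80 in the same order. E2F4 was highest, with 70 reads beside 368 of RNA Pol II, in the region from 70217001 to 70221000.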

How the results depend on the processing

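Of the 8 main results, the densities over flanks stayed above 1 in each of 15 alternatives. The count and the shares were run under 14, because the choice of flanks does not apply to them. They have no direction that could turn, so only the size of their change is given. E2F4 density and the density of 2-place reads over flanks moved beyond their own counting interval in 12 of 15 alternatives each, and the other 6 results in fewer than they kept. The cause was not tested, except where fewer reads or fewer regions follow from the alternative itself. Leaving out either WCE replicate gave 215 to 674 broad regions, 0.930 to 3.26% with an H3K27me3 bin, 66.3 to 67.0% with an E2F4 bin, E2F4 at 11.5 to 14.3 and H3K27me3 at 1.67 to 2.46 times the flanks. Under the same pair of alternatives the densest E2F4 bin was within 1 kb of an end in 53.9 to 59.0% and within 500 bp of the RNA Pol II summit in 66.0 to 73.8%, and RNA Pol II reads listed at 2 places were 12.4 to 15.5 times the flanks.

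A 5-fold limit gave 428 broad regions, 53.7% with an E2F4 bin, E2F4 at 11.1 and 2-place RNA Pol II at 12.1 times the flanks. A minimum of 20 reads gave 267 regions, 41.9% with E2F4, 1.498% with H3K27me3, and 12.8 and 16.7 times. The 5 kb limit gave 172 regions, 75% with E2F4, densest E2F4 bins near an end in 38.0% and near the summit in 69.8%, and E2F4, H3K27me3 and 2-place densities of 8.57, 1.60 and 14.0. RNA Pol II thinned to the E2F4 total gave 401 regions, 71.3% with E2F4, 1.75% with H3K27me3 and E2F4 at 12.2. The exact binomial call gave 58.7% with E2F4, E2F4 at 11.3 and 2-place reads at 9.38. Keeping every repeat gave E2F4 at 12.3 and 2-place reads at 13.0. Reads not moved gave H3K27me3 at 1.70 and 2-place reads at 9.41. Joining only touching bins gave 12.2 and 9.27 for E2F4 and 2-place reads, and joining over 2 bins gave 11.2 and 11.1. Scaling on background bins gave 12.03, 1.88 and 10.5 for E2F4, H3K27me3 and 2-place reads. Bins begun 250 bp later gave E2F4 at 12.04, H3K27me3 at 1.70 and 48.9% near an end. Flanks at 2 to 10 kb gave 10.4, 1.70 and 12.5.

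E2F4 density in broad over shorter regions stayed between 0.387 and 0.516 in 14 alternatives. The E2F4 share at the summit, broad minus shorter, stayed negative in each of them: from -19.7 to -7.18 percentage points at 40 to 79 RNA Pol II reads, -16.0 to -7.55 at 80 to 159 and -13.5 to -5.44 at 160 or more. Regions with 2 or more E2F4 stretches numbered 14 to 110, with 27 when WCE replicate 2 was left out.

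Among the named regions, H3K27me3 ratios turned from under to over 1 without WCE replicate 2 in the 5 longest, and leaving out either replicate gave ranges of 0.383 to 3.04, 0.399 to 4.41, 0.744 to 1.83, 0.299 to 5.60 and 0.339 to 4.19 by rank. The upper values rest on 1 to 4 extract reads each. Rank 3 also stood at 1.01 on background scaling. Of 321 such ratios recomputed 247 stayed within their interval, and 24 had no value because 0 extract reads were left. No paired analysis was possible because each antibody has 1 library. Depth limits what can be called: 3 reads are 0.000152% of the E2F4 total and 0.000718% of that of WCE replicate 1.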

Other observations

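Repeats of a position and strand, which were dropped before counting, made up 22.4% of E2F4 reads in broad regions, 28.2% in shorter regions and 16.2% outside RNA Pol II regions. For RNA Pol II the shares were 16.5%, 14.7% and 3.19%. WCE replicate 1 went the other way, with 6.69% in broad regions and 15.2% outside, and WCE replicate 2 had 8.27% and 6.96%.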
